A study of Mus musculus with 40 samples.

Results

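The blood glucose label of each mouse was set against gene expression in its pancreas, within groups of mice that shared the diet of the dam and the diet after weaning. All 40 arrays of the series entered (40 of 40), and the slope of the log2 signal of each expressed probe on the glucose label was fitted with a separate mean for each of the 4 groups, so that differences between the groups did not enter the slope. Each array held RNA from the whole pancreas of 1 male mouse of the C57BL/6J strain (the labels write C57BL\6), killed as a young adult at 9 weeks of age after a fast. Per the study's methods fasting blood glucose was measured at that point, and the label, which gives only a value in mg/dl, is taken to be that measurement. Dams had received a high fat (HF) or a low fat (LF) diet, with coconut oil as a main source of the fat, from before mating until their litters were weaned, and the offspring were weaned onto either diet. In the group names the diet of the dam stands before that of the mouse. HF_HF animals and their dams were both fed HF, LF_HF animals were fed HF after LF dams, HF_LF animals were fed LF after HF dams, and LF_LF animals and their dams were both fed LF, with 10 animals in each group. The labels give 12 cages, each with a single dam diet and 5 with mice on both diets, read here as cages of birth, and cage mates are not independent.

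Most of the pancreas by mass is acinar tissue, which makes digestive enzymes at a very high rate on the rough endoplasmic reticulum (ER), while islets, whose beta cells release insulin when blood glucose rises and whose alpha cells release glucagon when it falls, are a small share of the organ. Newly made secretory proteins pass through the translocon into the ER, are glycosylated and folded there by chaperones, and leave in coated vesicles for the Golgi. When unfolded protein builds up, the transcription factors ATF6 and XBP1 raise the chaperone genes through a promoter sequence called the ER stress response element. The pancreas lies in fat and holds macrophages, so a dissected sample can also carry RNA of adipocytes and immune cells. In bulk tissue, more cells of a type and more RNA per cell cannot be told apart.

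The 40 glucose values had a median of 199 mg/dl. They ran from 129 to 271 mg/dl in HF_HF (median 178), 187 to 277 in LF_HF (median 221), 148 to 241 in HF_LF (median 191) and 167 to 261 in LF_LF (median 196). Mean glucose was 188.5 ± 42.8 mg/dl in HF_HF, 221.8 ± 29.3 in LF_HF, 194.0 ± 24.0 in HF_LF and 206.1 ± 34.6 in LF_LF (SD, n = 10 each). The groups overlapped over most of their range, HF_HF had the widest spread and HF_LF the narrowest, and the spread around the group means was 33.4 mg/dl (SD). Slopes are therefore given per 50 mg/dl, which is less than the range inside any group. Of the sum of squares within groups, 62.4% lay within the 17 combinations of birth cage and diet, and the SD there was 33.1 mg/dl.

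**Figure D1:**
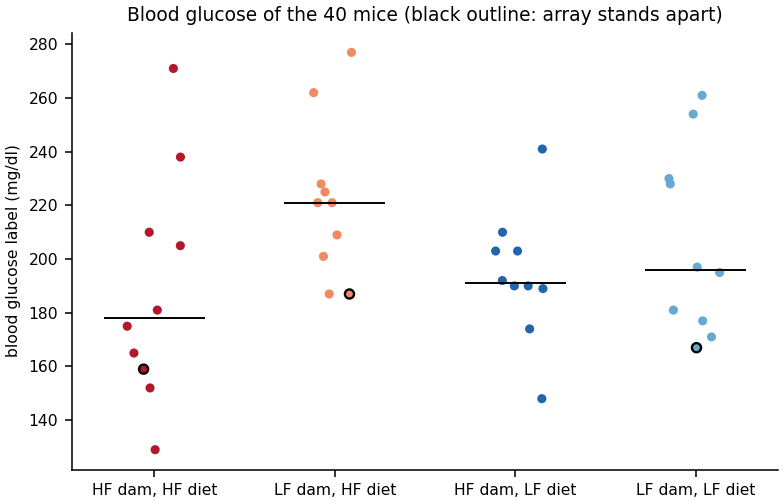
Blood glucose label of each mouse (mg/dl, 1 point per mouse) in the 4 groups of 10, with the group median as a bar and a black outline for the 3 mice whose arrays stand apart. Group medians were 178, 221, 191 and 196 mg/dl from left to right, and the 3 outlined mice had 159, 187 and 167 mg/dl.

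Body weight bore a weak relation to glucose within groups. The second weight in the labels, tied there to weaning although it is adult in size, gave r = 0.29 and rho = 0.25 with glucose once both were centred on their group means (40 mice; permutation test, two-sided, p = 0.0791 for r and 0.131 for rho, adjusted p = 0.158 for r over 2 relations). Without the 2 mice farthest from the median glucose r was 0.07 (permutation test, p = 0.673), and the change in r was not tested. With values centred on birth cage and diet r was 0.50 (permutation within those cells, p = 0.0291). The weight at 3 weeks gave r = 0.10 and rho = 0.10 (permutation test, p = 0.597 and 0.559, adjusted p = 0.597), and r was -0.09 without the same 2 mice.

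Expression in 3 arrays stood apart from the rest, and these came from mice in the lower part of the glucose range of their group. HF_HF replicate 5 (159 mg/dl, the third lowest of its group), LF_HF replicate 1 (187 mg/dl, equal lowest of its group) and LF_LF replicate 1 (167 mg/dl, the lowest of its group) differed from the array of median values by a distance over 3 interquartile ranges above the third quartile. HF_HF replicate 5 stood out for macrophage and myeloid genes, whose mean lay 1.54 log2 units above that of all arrays, LF_HF replicate 1 for hepatocyte genes (2.82 units above), and LF_LF replicate 1 for MHC class II genes (2.85 units above) and adipocyte genes (1.87 units above). The mean of the digestive enzymes, which mark acinar tissue, was -0.03 in HF_HF replicate 5, -0.00 in LF_HF replicate 1 and -0.07 in LF_LF replicate 1, where it was the lowest of the 40 arrays. Pairs of arrays correlated at 0.929 to 0.992 on the log2 scale. Slopes without these 3 arrays stand beside the lists and most of the named genes.

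No probe had a slope that passed the test. Of 12246 tested probes, 0 (0%) were called in either direction at an adjusted p under 0.05 in limma with Benjamini-Hochberg correction, and the lowest adjusted p was 0.113, shared by Kat5 and Haghl. An unadjusted p under 0.05 was reached by 1343 probes, 674 with positive and 669 with negative slopes, where an even spread of p-values would give 612.3. Counted by gene, with 1 probe each, 494 of 8858 genes (5.58%) had a positive and 503 (5.68%) a negative slope at that unadjusted threshold. After cyclic loess normalization the probes split into 510 positive and 838 negative, and without the 3 arrays that stand apart into 307 positive and 390 negative, 697 in all with a lowest adjusted p of 0.784. The median gene had a slope of 0.01 log2 units per 50 mg/dl with a 95% half-width of 0.06. That interval is not adjusted for the number of probes tested, and it is wider for more variable genes. Slopes as steep as -0.72 (Reg3a) did not pass. Among the 997 genes at the unadjusted threshold the median size of the slope was 0.08, a 1.05-fold difference per 50 mg/dl. With a lowest value of 43 the signals appear to carry their background, which compresses folds, most of all for weak probes.

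The 10 genes of each sign with the smallest p are described next, as genes that did not pass the correction and whose slopes are what they were chosen by. Of these 20, 14 had a mean log2 signal under 6.5, close to the median of an array at 5.97.

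Kat5, which encodes the histone acetyltransferase TIP60, had the smallest p. Its signal was 65.8 to 79.3 in HF_HF (median 73.2), 65.0 to 76.1 in LF_HF (median 70.8), 62.5 to 76.5 in HF_LF (median 67.6) and 63.1 to 77.9 in LF_LF (median 69.9). The 4 groups overlapped, and within each the mice of higher glucose tended to lie lower: the HF_HF mouse with 129 mg/dl had 79.3 and the one with 271 mg/dl had 65.8. The slope of log2 signal was -0.09 ± 0.02 per 50 mg/dl (SE; limma, adjusted p = 0.113), and it was -0.08 in HF_HF, -0.11 in LF_HF, -0.12 in HF_LF and -0.08 in LF_LF. Without the 3 arrays that stand apart it was -0.08. Another, weaker Kat5 probe had a slope of -0.01 (limma, unadjusted p = 0.654).

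Haghl, an enzyme gene related to the glyoxalase that clears methylglyoxal adducts, had signals of 70.4 to 100.7 in HF_HF (median 92.3), 73.0 to 103.6 in LF_HF (median 85.7), 75.8 to 92.5 in HF_LF (median 81.6) and 73.9 to 103.4 in LF_LF (median 82.05). The 2 lowest signals in HF_HF, 70.4 and 71.3, belonged to its mice of 238 and 271 mg/dl. The slope was -0.14 ± 0.03 per 50 mg/dl (SE; limma, adjusted p = 0.113), with group slopes of -0.17 in HF_HF, -0.16 in LF_HF, -0.11 in HF_LF and -0.11 in LF_LF, and -0.13 without the arrays that stand apart. Here too the other probe differed, with a slope of 0.01.

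Zyx encodes zyxin, a protein of focal adhesions and stress fibres, and gave clearer signal. It ran from 194.5 to 401.6 in HF_HF (median 247.65), 198.1 to 333.4 in LF_HF (median 249.35), 166.1 to 293.8 in HF_LF (median 233.7) and 198.4 to 391.1 in LF_LF (median 252.3). The highest value in HF_HF, in LF_HF and in LF_LF came from an array that stands apart. The slope was -0.23 ± 0.05 per 50 mg/dl (SE; limma, adjusted p = 0.307), -0.20 in HF_HF, -0.26 in LF_HF, -0.32 in HF_LF and -0.21 in LF_LF, and -0.17 without those arrays.

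The other 7 genes with negative slopes included several of the cell surface and of immunity. Lrg1, a secreted acute phase glycoprotein, had the steepest of them at -0.32 log2 units per 50 mg/dl, with group slopes between -0.33 in HF_HF and -0.29 in HF_LF, and -0.19 without the arrays that stand apart. Msn (moesin, a linker of membrane and actin) had a slope of -0.14 and -0.08 without them. Tap2, which carries peptides into the ER for MHC class I, had -0.12 (-0.09 without them), and Hfe, an MHC-like regulator of iron uptake, had -0.12 (-0.08 without them). Il6st, the gp130 receptor chain shared by interleukin 6 and its relatives, had -0.10 and was steepest in LF_LF (-0.20). Emd (emerin, of the inner nuclear membrane) had -0.09, with -0.01 in LF_HF and -0.06 at its other probe, and Efna5 (a membrane-bound ephrin ligand) had -0.08. All 10 genes had negative slopes in all 4 groups, and all 10 had an adjusted p of 0.307 or lower in limma.

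The positive side was led by Sohlh2, a helix-loop-helix factor known from germ cells and dim here. Its signal was 69.6 to 88.7 in HF_HF (median 79.9), 74.4 to 80.9 in LF_HF (median 78.45), 76.6 to 89.4 in HF_LF (median 83.4) and 67.4 to 92.7 in LF_LF (median 84.5). The lowest signal in HF_HF and in LF_LF was that of the mouse with the lowest glucose of the group, and the highest that of the mouse with the highest glucose. The slope was 0.08 ± 0.02 per 50 mg/dl (SE; limma, adjusted p = 0.307) and 0.07 without the arrays that stand apart.

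Hbegf, an EGF receptor ligand, had signals of 66.3 to 80 in HF_HF (median 69.9), 67.7 to 99.1 in LF_HF (median 73.6), 60.9 to 86.9 in HF_LF (median 75.1) and 65.6 to 82.2 in LF_LF (median 71.65). In all 4 groups the highest signal was that of the mouse with the highest glucose (271, 277, 241 and 261 mg/dl in the same order). The slope was 0.11 ± 0.03 (SE; limma, adjusted p = 0.307), 0.12 without the arrays that stand apart and 0.08 without the 2 mice farthest from the median glucose.

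Odc1, the rate-limiting enzyme of polyamine synthesis, was the brightest of the 20. Its signal was 890.8 to 1239.2 in HF_HF (median 1067.8), 1027.7 to 1409.8 in LF_HF (median 1289.95), 771.9 to 1181.8 in HF_LF (median 1070.2) and 801.0 to 1255.5 in LF_LF (median 1077.2). The lowest value in each group belonged to its mouse of lowest glucose (129, 187, 148 and 167 mg/dl in the same order, the second of these a tie of 2 mice). In LF_LF this was replicate 1, whose array stands apart. The slope was 0.14 ± 0.04 per 50 mg/dl (SE; limma, adjusted p = 0.307), 0.11 in HF_HF, 0.18 in LF_HF, 0.26 in HF_LF and 0.09 in LF_LF, and 0.11 without the arrays that stand apart. With 1 mean for each birth cage and diet it was 0.08.

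**Figure D2:**
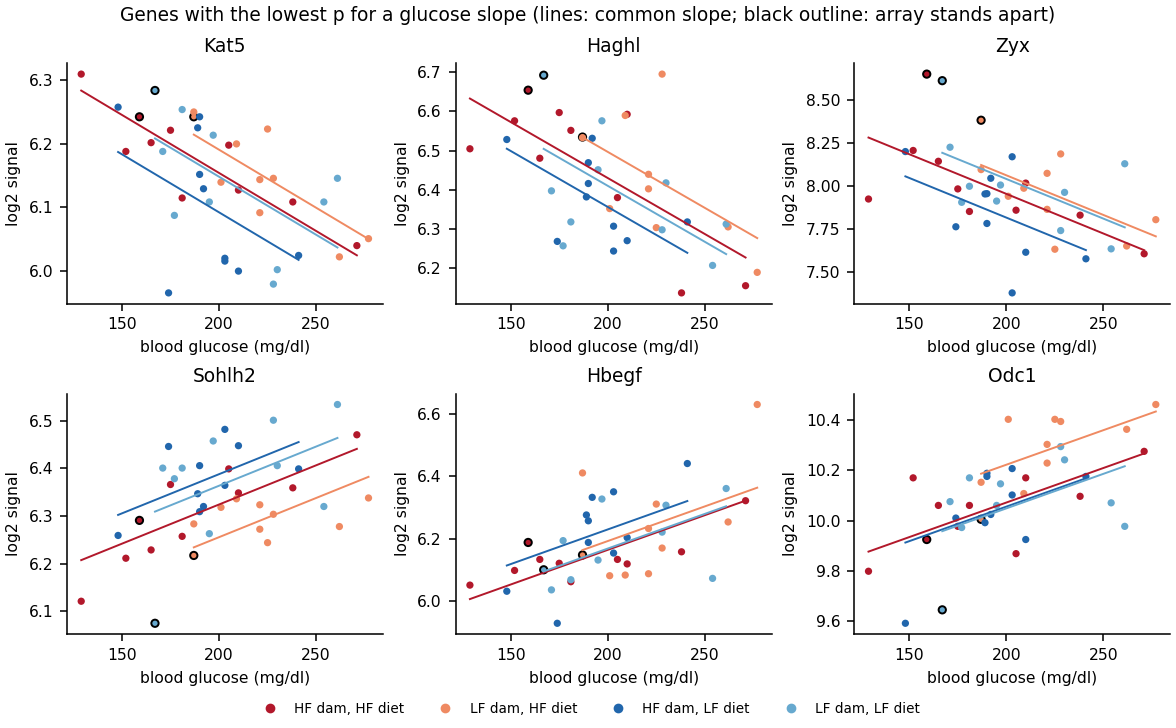
Log2 signal of 6 genes against blood glucose (mg/dl), 1 point per mouse coloured by group, with the common slope drawn through each group's mean and a black outline for arrays that stand apart. Kat5, Haghl and Zyx slope down (-0.09, -0.14 and -0.23 log2 units per 50 mg/dl) and Sohlh2, Hbegf and Odc1 slope up (0.08, 0.11 and 0.14).

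The remaining positive slopes were 0.19 for Polr3k, a subunit of RNA polymerase III, 0.14 for Hexim1, an inhibitor of the elongation factor P-TEFb, 0.11 for Camk2a, a calcium-dependent kinase, and 0.11 for Gm5464. Foxa2, a transcription factor that opens chromatin in gut and pancreas, had 0.09, Sec16b, which organizes ER exit sites, had 0.07, and Khdrbs2, an RNA-binding protein, had 0.06. The other probe of Polr3k had 0.12, and the other probe of Camk2a, opposite in sign, had -0.04. Hexim1 was the exception to agreement among the groups, with -0.00 in LF_LF against 0.22, 0.17 and 0.15 in HF_HF, LF_HF and HF_LF.

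**Figure D3:**
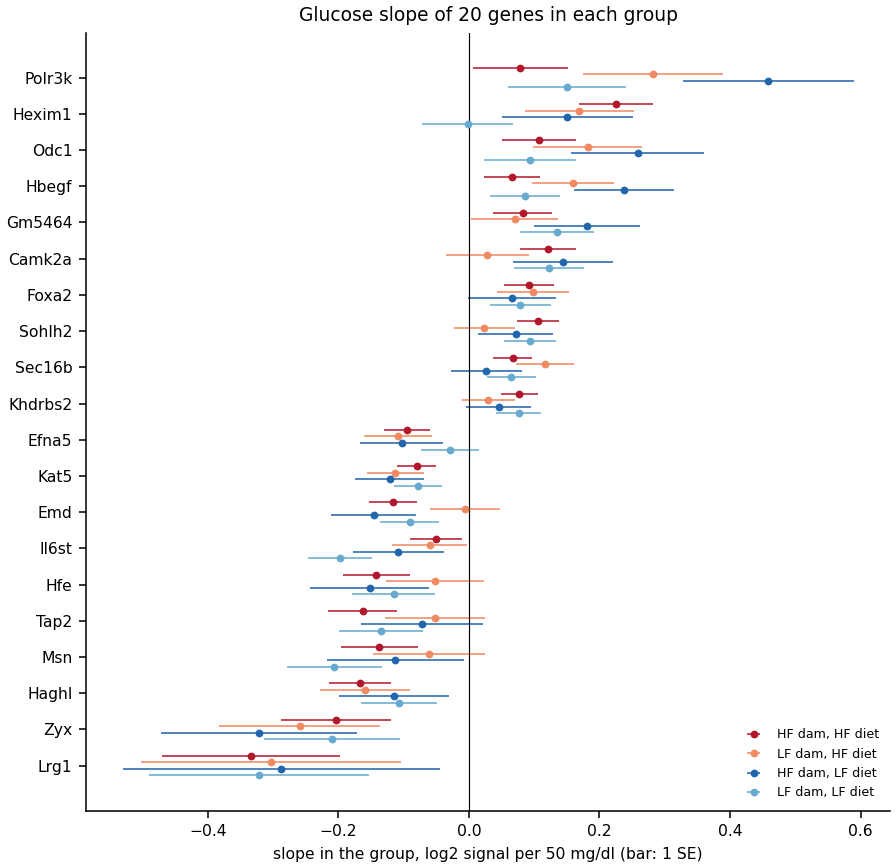
Glucose slope (log2 signal per 50 mg/dl, horizontal axis) of the 20 genes with the smallest p, fitted in each group of 10 mice (points, with 1 SE as bars, groups from top to bottom as in the legend). The slope had the same sign in all 4 groups for 19 genes; for Hexim1 it was -0.00 in LF_LF.

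That 19 of 20 genes chosen on all mice had the same sign in all groups follows in part from the choice, so the question of agreement was put to mice that did not take part in it. When HF_HF was left out, the 10 genes of each sign with the smallest p in the other 3 groups had the same sign in HF_HF for 10 of 20, and those at an unadjusted p under 0.05 for 50.6%, beside 52.5% of all genes. The same counts were 12 of 20 and 61.3% (beside 52.8%) for LF_HF, 13 of 20 and 65.7% (beside 57.0%) for HF_LF, and 14 of 20 and 69.0% (beside 59.5%) for LF_LF. Over all 8858 genes, 18.6% had 1 sign in all 4 groups. HF_HF, the group with the widest spread of glucose, was thus the one whose slopes matched the other 3 least, by these counts, which were not tested.

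The test of a difference in slope between the groups called 0 of 12246 probes (0%), with 1058 (8.64%) at an unadjusted p under 0.05 and a lowest adjusted p of 0.491. A contrast of HF and LF diet called 0 probes, with 506 at the unadjusted threshold, and one of HF and LF dams called 0 probes, with 414. The genes with the smallest p for a difference, none of which passed, were Gadd45b, a stress-induced regulator of growth arrest, with slopes of 0.11 in HF_HF, 0.20 in LF_HF, 0.12 in HF_LF and -0.23 in LF_LF, Plp2, a membrane protein, with 0.04, -0.10, -0.39 and -0.02 in the same order, and Klf15, a transcription factor of amino acid and glucose metabolism, with -0.10, 0.23, 0.29 and -0.12 (limma, adjusted p = 0.491 for each).

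The 44 gene lists are described by the count of their members in each direction and their median slope, beside 56.1% of all genes with positive slopes, 43.9% with negative slopes and a median of 0.01. No member of any list passed the test. At the unadjusted threshold the shares over all genes were 5.58% positive and 5.68% negative.

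Lists of the secretory pathway, which acinar cells use heavily, had mostly positive slopes. Of 24 genes of translocation into the ER and N-glycosylation, 20 had positive slopes, 6 of them and 0 of the negative ones at an unadjusted p under 0.05, with a median slope of 0.06 log2 units per 50 mg/dl. Of 29 genes of transport between ER and Golgi, 27 had positive slopes, 4 of them at that threshold (median 0.03). Of 21 ER chaperones of the unfolded protein response, 16 had positive slopes, 7 of them at the threshold along with 1 negative, and the median was 0.06. Without the 3 arrays that stand apart the counts of positive slopes were 20 of 24, 22 of 29 and 16 of 21, with medians of 0.03, 0.02 and 0.05, beside 0.00 over all genes. With the mean of the adipocyte genes as a covariate they were 21 of 24, 19 of 29 and 17 of 21 (medians 0.02, 0.02 and 0.04), and with that of the myeloid genes 21 of 24, 20 of 29 and 15 of 21 (medians 0.03, 0.01 and 0.05), beside 0.00 and -0.00 over all genes.

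All 3 lists had positive medians in all 4 groups. For the chaperones these were 0.02 in HF_HF, 0.04 in LF_HF, 0.06 in HF_LF and 0.12 in LF_LF, and for translocation and N-glycosylation 0.05, 0.05, 0.07 and 0.09. Positive slopes numbered 12, 13, 14 and 19 of 21 for chaperones and 16, 17, 17 and 21 of 24 for translocation, in the same order. Over all 8858 genes they numbered 4863, 4240, 4497 and 4743. The share of positive chaperones in HF_HF thus lay near that of all genes. LF_LF replicate 1 was lowest of its group in both lists, with a mean 0.43 log2 units below that of all arrays for chaperones and 0.42 below for translocation, where the other 9 mice of the group lay between -0.12 and 0.12 and between -0.08 and 0.09.

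Among chaperones the member with the smallest p was Dnajc3 (p58IPK, a co-chaperone that also restrains the kinase PERK). Its signal was 403.9 to 625.2 in HF_HF (median 475.7), 473.5 to 711.2 in LF_HF (median 557.55), 463.6 to 608.7 in HF_LF (median 533.65) and 326.6 to 689.5 in LF_LF (median 559.8). The highest HF_HF value was that of the mouse with 271 mg/dl and the lowest, 403.9, was shared by the mice with 129 and 165 mg/dl. The slope was 0.14 ± 0.05 per 50 mg/dl (SE; limma, adjusted p = 0.361), a 1.10-fold difference, and 0.09 without the arrays that stand apart.

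Hsp90b1, the ER chaperone GRP94, had signals of 760.5 to 1250.6 in HF_HF (median 983.5), 837.9 to 1437.9 in LF_HF (median 969.0), 771.9 to 1210.6 in HF_LF (median 1029.0) and 615.7 to 1283.3 in LF_LF (median 937.15). The groups overlapped almost fully. The slope was 0.15 ± 0.06 (SE; limma, adjusted p = 0.376), 0.04 in HF_HF, 0.31 in LF_HF, 0.21 in HF_LF and 0.18 in LF_LF, and 0.14 without the arrays that stand apart. Selenos, a part of the complex that draws misfolded proteins out of the ER, had 0.13 (0.05 without those arrays) and Ero1b, the ER oxidase of secretory cells, had 0.14 (0.06 without them). Pdia3, a disulfide isomerase that acts on glycoproteins, went the other way with -0.05.

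The ER stress response element was looked for in the promoters of these genes, because it is the sequence through which ATF6 and XBP1 act on chaperones. The motif, CCAAT and CCACG with 9 bases of any kind between them, read on both strands, stood in the promoter window (250 bases before to 50 after the start site; RefSeq, GRCm38.p6) of 9 of the 20 chaperone genes for which a window was at hand (45.0%), beside 37 of all 27025 genes (0.137%) and 0.119% of all 32851 windows. It was found for 0 of 18 translocation genes and 0 of 25 transport genes. The chaperone list was drawn up as genes of the unfolded protein response. A high share with the motif follows in part from that choice and says nothing about glucose. The stretches around the motif follow for 5 genes that carry it, picked for a positive slope at an unadjusted p under 0.05. None of these slopes passed the correction. Calr, which carries the motif and had a negative slope, is shown as well. Capitals mark the motif, and each stretch is written along the strand of the gene, so that it starts with CGTGG and ends with ATTGG where the motif lies on the other strand.
Dnajc3, chr14:118937807-118937865, plus strand: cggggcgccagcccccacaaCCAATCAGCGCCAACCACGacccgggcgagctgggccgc
Hsp90b1, chr10:86705618-86705676, minus strand: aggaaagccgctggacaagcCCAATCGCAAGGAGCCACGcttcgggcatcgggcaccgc
Hsp90b1, chr10:86705513-86705571, minus strand: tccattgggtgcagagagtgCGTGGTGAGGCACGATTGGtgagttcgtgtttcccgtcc
Ero1b, chr13:12565662-12565720, plus strand: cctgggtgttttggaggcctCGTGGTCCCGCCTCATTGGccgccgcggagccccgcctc
Creld2, chr15:88819500-88819558, plus strand: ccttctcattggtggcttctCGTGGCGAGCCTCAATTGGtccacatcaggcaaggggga
Pdia6, chr12:17266471-17266529, plus strand: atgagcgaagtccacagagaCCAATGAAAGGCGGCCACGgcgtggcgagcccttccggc
Calr, chr8:84847055-84847113, minus strand: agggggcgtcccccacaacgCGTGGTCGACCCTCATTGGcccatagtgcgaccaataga

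Slopes of the 9 genes with the motif were 0.15 for Hsp90b1, 0.14 for Dnajc3, 0.14 for Ero1b, 0.14 for Creld2 (a folding factor induced by ER stress), 0.10 for Pdia6 (a disulfide isomerase), 0.06 for Derl3 (of ER-associated degradation), 0.05 for Hspa5 (BiP, the main Hsp70 of the ER), -0.01 for Syvn1 (an ER ubiquitin ligase) and -0.05 for Calr (calreticulin). Creld2, Pdia6, Derl3, Hspa5, Syvn1 and Calr are named for the motif, after their values were seen. Pdia3, the only chaperone gene with a negative slope at the unadjusted threshold, was also singled out after its value was seen. The match is a description of these windows, and the slopes with and without it were not compared by a test.

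The translocation genes with positive slopes at the unadjusted threshold included Ssr4 and Ssr3, subunits of the translocon-associated complex, and Spcs3, a subunit of the signal peptidase. Ssr4 signal was 4873.9 to 6168.2 in HF_HF (median 5250.2), 5195.4 to 6311.0 in LF_HF (median 5635.3), 5418.3 to 6478.6 in HF_LF (median 5991.75) and 4250.6 to 6168.2 in LF_LF (median 5632.9). Its slope was 0.09 ± 0.03 per 50 mg/dl (SE; limma, adjusted p = 0.329), near equal in the groups at 0.09, 0.07, 0.07 and 0.10, and 0.07 without the arrays that stand apart. Spcs3 had 0.14 and Ssr3 0.11 (0.07 each without those arrays), although the slope of Ssr3 was -0.00 in LF_HF and -0.01 in HF_LF. On the transport side Sec16b was followed by Tmed6, a cargo receptor of the p24 family, with 0.13 (0.08 without them) and Lman1, a lectin that carries glycoproteins out of the ER, with 0.13 (0.10 without them), but -0.06 in HF_HF.

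Lists of one-carbon enzymes, tRNA synthetases and acinar transcription factors had more positive than negative slopes too. Of 13 enzymes of serine, methionine and one-carbon metabolism 12 were positive (median 0.06), with Cbs, which condenses homocysteine with serine, at 0.13 and Psat1, of serine synthesis, at 0.16 (0.07 and 0.12 without the arrays that stand apart). Of 19 aminoacyl-tRNA synthetases 16 were positive, with Nars, which charges asparagine tRNA, at 0.14 (limma, adjusted p = 0.329; 0.08 without them). Of 8 acinar transcription factors 7 were positive, with Bhlha15 (MIST1, which builds the secretory apparatus of acinar cells) at 0.13 and Rbpjl, a subunit of the PTF1 complex, at 0.09 (0.09 and 0.07 without them). Without the 3 arrays that stand apart the counts were 9 of 13, 12 of 19 and 4 of 8, so the last was no longer tilted. The digestive enzymes themselves split evenly: 11 of 24 were positive and 13 negative, with 0 at the unadjusted threshold and slopes of -0.07 to 0.13. Most of them lay near the top of the signal range of the array.

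No islet gene passed the test. Ins2, insulin, had signals of 4464.1 to 13729.2 in HF_HF (median 8903.05), 4060.1 to 12455.1 in LF_HF (median 7377.0), 4162.4 to 11738.7 in HF_LF (median 7462.7) and 6852.4 to 10079.6 in LF_LF (median 7377.0). The groups overlapped, and the lowest HF_HF value was that of an array that stands apart. The slope was 0.08 per 50 mg/dl with a 95% interval of -0.09 to 0.26 (limma, adjusted p = 0.752) and 0.03 without the arrays that stand apart, and it was positive in HF_HF (0.22) and LF_HF (0.12) and negative in HF_LF (-0.03) and LF_LF (-0.10). Slopes above 0.26 or below -0.09 lie outside that interval.

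Gcg, the precursor of glucagon, had signals of 670.6 to 2974.5 in HF_HF (median 1690.55), 707.4 to 2974.5 in LF_HF (median 1394.8), 979.5 to 2675.7 in HF_LF (median 1729.75) and 171.7 to 2137.3 in LF_LF (median 1647.85). The lowest values in HF_HF, LF_HF and LF_LF were those of the 3 arrays that stand apart. The slope of 0.18 (95% interval -0.15 to 0.51) was -0.09 without them. Sst, somatostatin, had 0.05 and Iapp, amylin, 0.08 (-0.02 and 0.03 without those arrays), and Ppy, pancreatic polypeptide, had -0.15 (-0.10 without those arrays; limma, adjusted p = 0.394), with -0.44 in LF_LF and between -0.10 and -0.03 in the other groups. Pyy, the related peptide YY, had -0.12.

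Of the machinery with which a beta cell senses glucose, Slc2a2 (the transporter GLUT2) and Pdx1 (the beta cell transcription factor) had slopes of -0.00 (95% interval -0.06 to 0.06) and -0.00 (-0.06 to 0.05), both at signals near the median of the array. Slc2a2 was read from 1 of its 3 tested probes, the one of highest mean. Its highest signal in LF_HF was that of LF_HF replicate 1, the array that stood out for hepatocyte genes. Without that mouse the Slc2a2 slope was 0.02. G6pc2, a glucose-6-phosphatase of beta cells, had 0.19 ± 0.07 (SE; limma, adjusted p = 0.376), positive in all 4 groups, and 0.12 without the arrays that stand apart. A second G6pc2 probe had 0.06. Glp1r, the receptor of the incretin GLP-1, had 0.04, and Isl1, an islet transcription factor, had -0.07. The 3 probes of Mafa lay above the median in 2, 4 and 11 arrays and were not tested, and Ins1 was not analysed here.

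Genes that respond to glucose through ChREBP and MondoA did not share a direction: 5 of 16 had positive and 11 negative slopes. Txnip, the target most used as a marker of glucose entry, had 0.06 with a 95% interval of -0.09 to 0.21, and 0.09 without the arrays that stand apart. Arrdc4, its close relative, had 0.08 (limma, adjusted p = 0.376). Mlxipl, which encodes ChREBP, had -0.11, Thrsp, a lipogenic regulator, -0.24, and Scd1, the fatty acid desaturase, -0.59. Thrsp and Scd1 were highest in LF_LF replicate 1, where adipocyte genes were also highest, and had -0.09 and -0.23 without the 3 arrays. Fgf21, a hormone that the acinar pancreas releases, had -0.06 (-0.13 without those arrays), with -0.26 in HF_HF and in LF_HF against 0.04 in HF_LF and 0.33 in LF_LF.

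**Figure D4:**
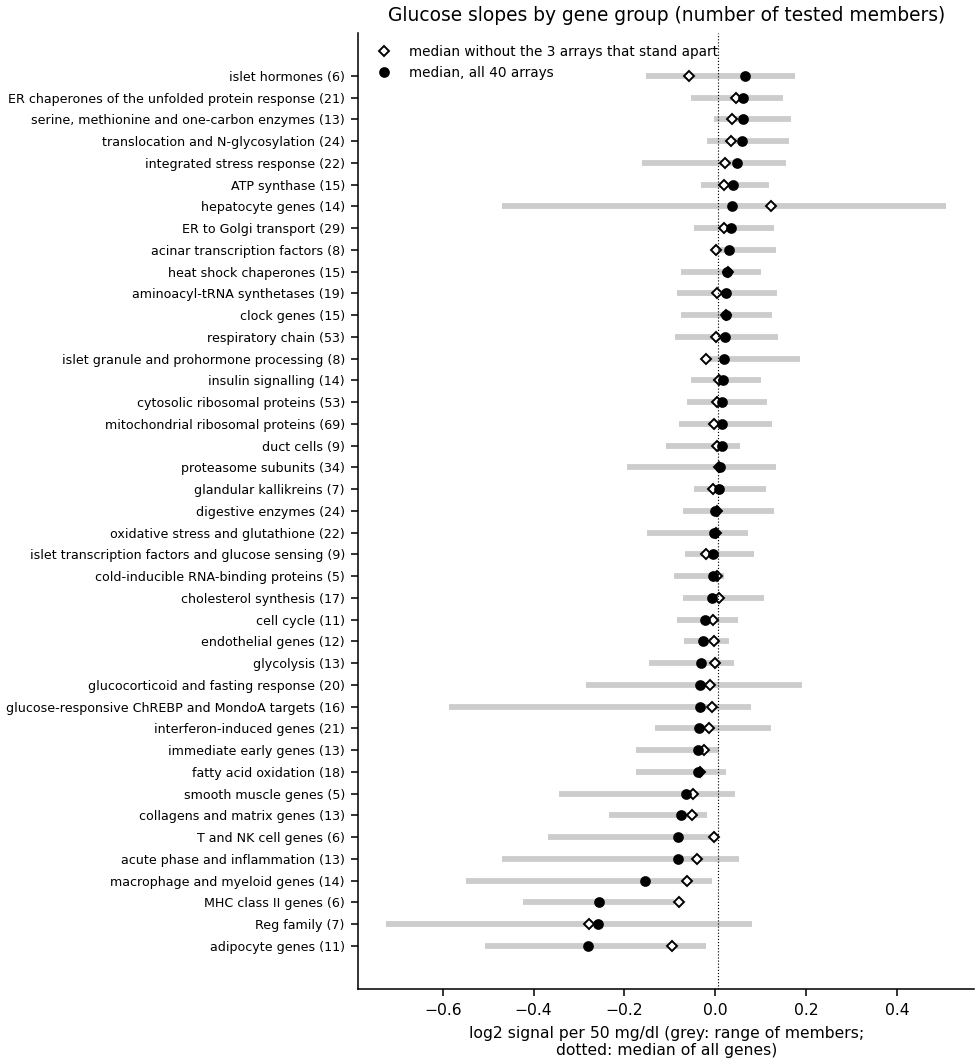
Glucose slopes by gene list, in log2 signal per 50 mg/dl: median over all 40 arrays (filled), median without the 3 arrays that stand apart (open diamonds), range of the members (grey) and median of all genes (dotted), for lists with 5 or more tested members. The negative medians of adipocyte (-0.28), MHC class II (-0.26) and myeloid genes (-0.15) moved to -0.10, -0.08 and -0.06 without those arrays, while that of the ER chaperones moved from 0.06 to 0.05.

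The lists that mark fat, macrophages, antigen presentation and matrix had negative slopes throughout. All 11 tested adipocyte genes (of 16 listed) had negative slopes, 6 at the unadjusted threshold, with a median of -0.28. All 14 macrophage and myeloid genes (of 19) did, 7 at the threshold (median -0.15), as did all 6 MHC class II genes, 4 at the threshold (median -0.26), and all 13 collagen and matrix genes, 6 at the threshold (median -0.07). Without the arrays that stand apart 11 of 11, 13 of 14, 6 of 6 and 12 of 13 were still negative, with medians of -0.10, -0.06, -0.08 and -0.05. The medians were negative in all 4 groups in each of these lists, but not every member was. Matrix genes in LF_LF had 8 negative and 5 positive slopes (median -0.02), and MHC class II genes in LF_HF had 4 and 2. With 1 mean for each birth cage and diet the list medians were -0.22, -0.23, -0.27 and -0.13. The sign was not kept in every alternative run: the highest medians were 0.01, -0.00, 0.04 and 0.02 in the same order.

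Lyz2, the lysozyme of macrophages and neutrophils, had signals of 198.4 to 2940.7 in HF_HF (median 276.4), 193.7 to 686.3 in LF_HF (median 312.85), 187.9 to 513.3 in HF_LF (median 272.6) and 242.0 to 2032.4 in LF_LF (median 317.95). The values of 2940.7 and 2032.4 were those of HF_HF replicate 5 and LF_LF replicate 1, and in HF_HF, LF_HF and HF_LF the mouse of highest glucose had the lowest signal. The slope was -0.53 ± 0.18 (SE; limma, adjusted p = 0.344) and -0.27 without the 3 arrays. C1qc and C1qb, chains of the complement component made by macrophages, had -0.27 and -0.30 (-0.15 and -0.18 without them), and Lyz1, a lysozyme of Paneth cells whose probe may also take up Lyz2, had -0.55 (-0.29 without them). H2-Ab1 and Cd74, which present antigen on MHC class II, had -0.41 and -0.42, and -0.19 and -0.18 without the 3 arrays.

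Pnpla2, the triglyceride lipase ATGL, had signals of 192.8 to 389.8 in HF_HF (median 297.7), 195.4 to 452.8 in LF_HF (median 248.55), 205.1 to 328.4 in HF_LF (median 239.7) and 194.3 to 1316.7 in LF_LF (median 265.1). Only LF_LF replicate 1, with 1316.7, lay apart from the rest. The slope was -0.29 ± 0.10 (SE; limma, adjusted p = 0.361) and -0.14 without the arrays that stand apart. Plin4 and Cidec, which coat fat droplets, had -0.36 and -0.34, and Car3, a carbonic anhydrase abundant in fat, -0.51 (-0.16, -0.14 and -0.23 without them). Among matrix genes Mgp, an inhibitor of calcification, had -0.21, and -0.19 without those arrays. Bgn and Dcn, small proteoglycans of connective tissue, had -0.20 and -0.21 (-0.12 and -0.16 without them).

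**Figure D5:**
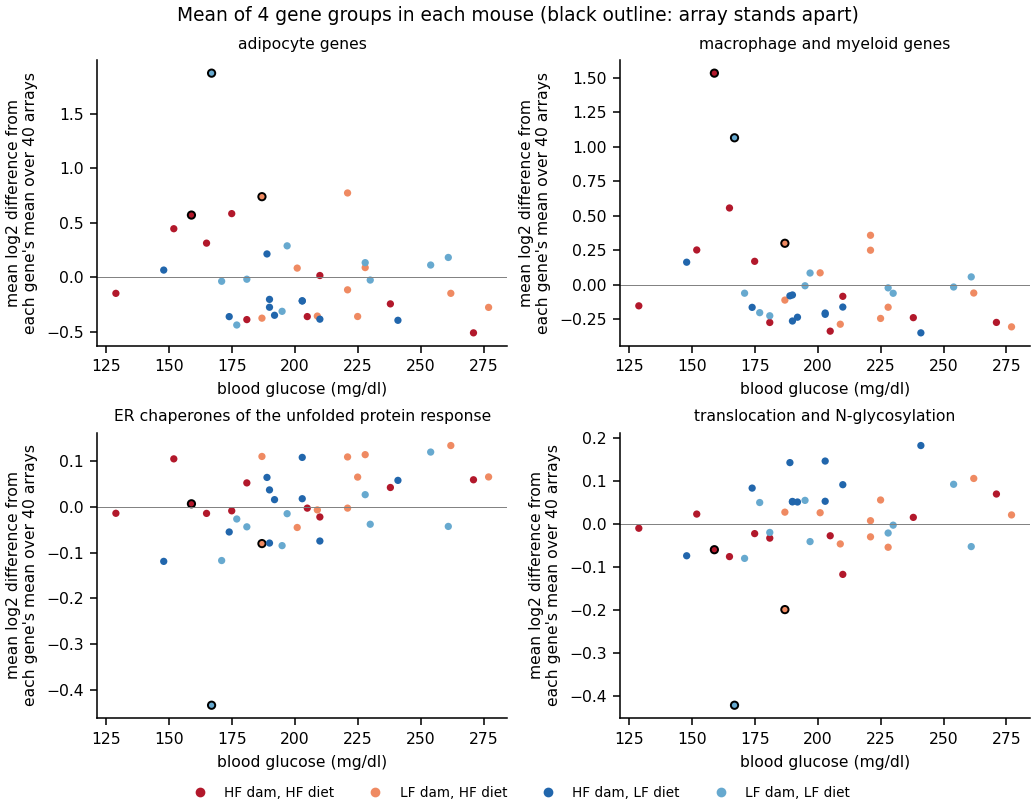
Mean of 4 gene lists in each mouse (log2 difference from each gene's mean over the 40 arrays) against blood glucose in mg/dl, 1 point per mouse coloured by group, with a black outline for arrays that stand apart. LF_LF replicate 1 at 167 mg/dl is highest for adipocyte genes (1.87) and lowest for ER chaperones (-0.43), and HF_HF replicate 5 at 159 mg/dl is highest for myeloid genes (1.54).

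The unadjusted count over all probes was lower with the adipocyte or the myeloid mean as a covariate. With the mean of the adipocyte genes the number at an unadjusted p under 0.05 was 515, and with that of the myeloid genes 555, against 1343 without a covariate. An even spread of p-values would give 612.3. The count was 776 with the mean of the T and NK cell genes, 1323 with that of the islet hormones and 1368 with that of the hepatocyte genes. Without LF_LF replicate 1, and with no covariate, it was 929. Both covariates are themselves lists with negative slopes, and their part in the slopes of other genes was not tested.

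Genes of inflammation, early response and fat use also had mostly negative slopes. Of 13 acute phase and inflammation genes 12 were negative (median -0.08), with Serpina3n, a protease inhibitor of the acute phase, at -0.33, Icam1, an adhesion molecule for leukocytes, at -0.13 and Socs3, a brake on gp130 signalling, at -0.08. Without the arrays that stand apart 11 of 13 were negative with a median of -0.04, and the slopes were -0.14 for Serpina3n, -0.07 for Icam1 and -0.07 for Socs3. With the myeloid mean as a covariate 7 of 13 were negative (median -0.00). Of 13 immediate early genes 11 were negative, with Klf2 at -0.17, Egr1 at -0.16 and Zfp36, which degrades cytokine mRNAs, at -0.15 (-0.08, -0.10 and -0.11 without those arrays). The sign of the median was not the same in all groups, a difference that was not tested: it was 0.02 in LF_HF, where 8 of 13 were positive, and without the HF_HF mice 7 of 13 were positive (median 0.00). Leaving out HF_HF replicate 7 alone gave a median of -0.01, against -0.04 with all mice. Of 18 genes of fatty acid oxidation 16 were negative (median -0.04), with Slc25a20, the carnitine carrier of mitochondria, at -0.17, and 17 of 18 were negative without the arrays that stand apart. Angptl4, a fasting-induced inhibitor of lipoprotein lipase, had -0.28 (-0.14 without them). In the T and NK cell list Coro1a, an actin regulator of leukocytes, had -0.37, and -0.10 without them, where 3 of the 6 members were negative and 3 positive.

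The Reg family had steeper negative slopes than the other acinar lists, although no member passed the test. Of 7 members 5 had negative slopes, with a median of -0.26 and of -0.28 without the arrays that stand apart. By group the median was -0.61 in HF_HF, -0.02 in LF_HF, -0.08 in HF_LF and -0.33 in LF_LF, with 5, 4, 4 and 5 of 7 negative. Reg3a, a secreted lectin that acts on bacteria, had signals of 206.9 to 4970.6 in HF_HF (median 1444.1), 508.2 to 3975.9 in LF_HF (median 2040.1), 1146.6 to 11333.2 in HF_LF (median 2828.45) and 475.9 to 7070.7 in LF_LF (median 2712.0). Mice of the same group and similar glucose differed widely, such as 206.9 and 4970.6 at 152 and 165 mg/dl in HF_HF. The slope was -0.72 ± 0.29 (SE; limma, adjusted p = 0.376), -0.99 in HF_HF, -0.06 in LF_HF, -0.70 in HF_LF and -0.81 in LF_LF, and -0.34 with 1 mean for each birth cage and diet. Reg2 had -0.54 and Reg3b -0.43 (-0.26 and -0.20 with those cage means), and Reg4, dim here, had 0.08. The Reg genes are close relatives, so probes may take up transcripts of one another.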

How the data were processed

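Pancreas RNA from 40 mice had been hybridised by the study to MouseRef-8 v2.0 beadchips. Per the labels and the study's methods, the authors exported the deposited intensity values from BeadStudio (version not given in the sources used here) and quantile normalized them over all arrays. The values are linear, ran from 43 to 35587.5, so that background appears not to have been subtracted, and carried no detection p-values, and slide, scan and extraction batches were not given in the sources used here. The number of arrays and their signal over background limit the precision.

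Groups, glucose, weights and birth cages came from the labels. Of 25697 probes, 23978 had 1 gene symbol in the platform annotation and 1719 none. The log2 value of each probe above its array's median in at least 20 arrays (12246 probes) was regressed on glucose with 1 mean for each group, in limma 3.58.1 (lmFit, eBayes with trend, R 4.3.3), and p-values were adjusted by Benjamini-Hochberg over all tested probes. A gene was read from its tested probe of highest mean. Slopes by group, and their differences, came from a second fit with a slope for each group. Named genes were the 10 of each sign with the smallest p, the 3 with the smallest p for a slope difference, up to 4 genes with the smallest p of each list, and a set of islet and glucose genes. The members and lists were chosen with earlier results of these data known. Permutation tests of weight used 100000 resamples within groups (scipy 1.17.1), and figures used matplotlib 3.10.9. The scripts were tested on simulated data. Alternatives covered normalization, background, filters, covariates, cages, groups and single animals. Whether cage mates or samples processed together share more than their diet was addressed only through the cage fits, and p-values treat mice as independent.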

Additional observations from a re-analysis of the deposited data

Results flagged for a closer look

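In each group of 10 mice, the gap between the highest or lowest mouse and the next was set against the whole range of the group. It took over 0.47 of that range in 30 of 172 sets of values tested. Chance alone gives this in about 1 of 20 sets where sets are independent and values normally distributed. The sets here share the same mice and related genes, so that rate cannot be set against the count as a test. The 30 sets came from 7 mice and are given here as values.

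LF_LF replicate 1 (167 mg/dl) lay apart from its group in 14 sets. It was highest for Lrg1 (7.80 log2 signal), Msn (6.81), Tap2 (7.06) and Hfe (6.68), and lowest for Camk2a (6.09), Odc1 (9.65) and Gcg (7.42). Among list means it was highest for adipocyte genes (1.87), macrophage and myeloid genes (1.07), MHC class II genes (2.85) and T and NK cell genes (1.71), and lowest for ER chaperones (-0.43), translocation and N-glycosylation (-0.42) and transport between ER and Golgi (-0.34).

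HF_HF replicate 5 (159 mg/dl) was highest of its group for Lrg1 (7.97), Msn (6.75) and the mean of the myeloid genes (1.54), and lowest for Gcg (9.39). LF_HF replicate 1 (187 mg/dl) was highest of its group for the mean of the hepatocyte genes (2.82), and it lay apart for Slc2a2 (6.38) and translocation (-0.20). These 2 mice and LF_LF replicate 1 are the ones whose whole arrays stand apart.

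HF_HF replicate 7, which had the highest glucose of its group (271 mg/dl), lay apart for Tap2 (6.13) and Hbegf (6.32). HF_LF replicate 5, which had the lowest of its group (148 mg/dl), lay apart for Odc1 (9.59) and for the means of MHC class II genes (0.29), collagens and matrix genes (0.16), translocation (-0.0741) and transport between ER and Golgi (-0.0830). HF_LF replicate 4 had an Ins2 signal of 12.02 on the log2 scale, the lowest of its group, and LF_HF replicate 9 had the highest mean of islet hormones (0.47) of its group.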

How the results depend on the processing

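No slope passed the test, and the median gene had an unadjusted 95% half-width of about 0.06. That is not the smallest slope the test could call: slopes as steep as -0.72 (Reg3a) did not pass. With single mice left out aside, 365 values of counts and weight relations under the alternatives kept their side of the threshold or stayed within 1.5 times the main count, and 8 did not. With 1 mean for each birth cage and diet 1 probe was called (Olfm3, positive, adjusted p = 0.00950 in limma). With single mice left out in turn 0 to 1 probe was called, in all cases with a negative slope: without HF_LF replicate 1, Kat5 had a slope of -0.10 (adjusted p = 0.0330). Without group means 396 probes were called for a slope difference between groups, 631 for one by diet and 2 for one by dam diet, where by construction group differences enter the slopes. Unadjusted counts, 1343 in all, were 697 without the 3 arrays that stand apart, 796 without HF_HF replicate 5 and LF_LF replicate 1 (chosen after seeing the data), 929 without LF_LF replicate 1, 922 with array weights, 825 without cage 23 and 484 with the first residual component as a covariate. Glucose against the second weight gave r = 0.496 within cage and diet. Against the weight at 3 weeks r was -0.0930 without the 2 extreme mice and -0.107 within cage and diet. No paired analysis was possible because replicate numbers follow accession order only.

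Named slopes that changed sign included those of islet genes near 0 in the main fit, such as Slc2a2 and Pdx1. Steeper slopes of fat and immune genes, such as Scd1 (-0.59), Car3 (-0.51) and Cd74 (-0.42), changed sign in runs with covariates. The cause was not tested. After background subtraction the slope was 0.00356 for Slc2a2. Without the 3 arrays that stand apart the slope was -0.0946 for Gcg, -0.0231 for Sst and 0.00634 for Slc2a2. On log2 glucose the slope was 0.000349 for Slc2a2. Without cage 4 the slope was 0.0135 for Slc2a2 and -0.0292 for Txnip. Without cage 8 the slope was 0.00928 for Slc2a2 and 0.00119 for Pdx1. Without cage 10 the slope was 0.00688 for Slc2a2 and 0.000616 for Pdx1. Without cage 11 the slope was 0.00338 for Pdx1. Without cage 12 the slope was 0.00283 for Pdx1. Without cage 14 the slope was 0.0230 for Slc2a2. Without cage 23 the slope was -0.00416 for Sst. With 1 mean for each cage and diet the slope was 0.0435 for Slc2a2 and 0.0481 for Pyy. With 1 value for each cage and diet the slope was -0.0872 for Ins2, -0.0491 for Sst, 0.00467 for Pdx1 and 0.00230 for Isl1. Without group HF_HF the slope was -0.0121 for Ins2 and 0.0735 for Fgf21. Without group LF_HF the slope was -0.00979 for Sst, 0.0175 for Slc2a2, 0.000319 for Pdx1 and -0.00200 for Txnip. Without group HF_LF the slope was 0.0140 for Pdx1. Without group LF_LF the slope was 0.0114 for Slc2a2. With no group means the slope was -0.00126 for Sst, 0.00988 for Pdx1 and 0.0177 for Fgf21. With the second weight as a covariate the slope was 0.0207 for Slc2a2. With the weight at 3 weeks as a covariate the slope was 0.00687 for Slc2a2. With the mean of the adipocyte genes as a covariate the slope was -0.0524 for Gcg, -0.000616 for Sst, 0.00122 for Cidec and 0.0568 for Scd1. With the mean of the macrophage and myeloid genes as a covariate the slope was -0.00523 for Ins2, -0.0876 for Gcg, -0.0402 for Sst and 0.00165 for Coro1a. With the mean of the T and NK cell genes as a covariate the slope was -0.0381 for Gcg. With the first residual component as a covariate the slope was -0.16 for Gcg, -0.0598 for Sst, -0.00433 for Iapp, 0.00524 for Car3, 0.0221 for Cidec, 0.00983 for H2-Ab1, 0.0256 for Cd74, 0.0737 for Coro1a and 0.0532 for Scd1. Without HF_HF replicate 5 and LF_LF replicate 1 the slope was -0.0399 for Gcg and -0.00239 for Sst. With the means of the adipocyte, myeloid and matrix genes as covariates the slope was -0.0682 for Gcg, -0.0344 for Sst, 0.0199 for Car3 and 0.0508 for Scd1. With single mice left out slopes ran from -0.0163 to 0.00236 for Pdx1, from -0.0105 to 0.0194 for Slc2a2 and from -0.00493 to 0.0906 for Sst. The 20 genes with the smallest p kept their sign in every alternative run. They were chosen by their slopes on these same arrays, most of which the alternatives share, so a kept sign follows in part from the choice.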
